A study of Mus musculus with 4 samples.

Results

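Genes that move fatty acids from circulating lipoproteins into cells and out of lipid droplets were compared between wild-type and SMRTmRID 3T3-MEFs. The group was defined by 10 gene symbols for triglyceride hydrolysis and its inhibition, fatty acid uptake and binding, and lipid droplet lipolysis: Lpl, Angptl4, Angptl2, Vldlr, Cd36, Fabp4, Fabp5, Plin2, Pnpla2 and Lipe. In the platform annotation 9 of the 10 had a probe set of their own, 24 probe sets in all, out of 18193 named genes on the array. Angptl2 had none named here and was not analysed. The arrays carried RNA of 3T3-MEFs, mouse embryonic fibroblasts that have been passaged into a permanent line, from wild-type mice (2 arrays) and from mice with the SMRTmRID allele (2 arrays), the latter altered in the receptor interaction domains of the corepressor SMRT. Both genotypes were collected undifferentiated once the dishes were confluent. The labels do not give the zygosity of the allele, and the genotype was not checked from the arrays. The labels call the 2 arrays of a genotype technical replicates and do not say how many lines or embryos a genotype came from, so the p-values measure only the spread between these arrays.

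Lipoprotein lipase, the product of Lpl, is secreted and hydrolyses triglyceride in chylomicrons and very low density lipoproteins. Its activity at the cell surface is restrained by angiopoietin-like proteins, and the VLDL receptor and the scavenger receptor CD36 take up the particles and the released fatty acids. Inside the cell, small fatty acid binding proteins carry the acids, perilipins coat the lipid droplet, and the lipases encoded by Pnpla2 and Lipe release fatty acids from it again. In adipocytes several of these genes are targets of PPARgamma, a nuclear receptor whose target genes SMRT can hold silent when ligand is absent.

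Values are MAS5 signals, 1 linear brightness per probe set and array, and each gene is represented by its brightest probe set unless another is named. The arrays had been scaled to one trimmed mean (200.0 on each), and the 3′ probe set of the beta-actin control was 1.19 to 1.20 times as bright as its 5′ probe set on every array, a check of intact RNA. A gene was tested if its 4 signals averaged more than 35.1, which is the median of all values. Differences are SMRTmRID minus wild-type in log2(signal + 16), tested with limma, and a call needs a Benjamini-Hochberg adjusted p below 0.05 over all 11057 tested genes. The genotypes differed broadly: 65.2% of tested genes were called, 30.3% higher and 35.0% lower in SMRTmRID. Of all calls 46.4% were higher, a share that fell to 33.9% after median centring, which moved the median difference of all tested genes from -0.05 to -0.21.

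Lpl, Angptl4, Fabp4 and Plin2 were higher in SMRTmRID cells, and Vldlr, Pnpla2 and Fabp5 were lower. These were 7 of the 8 genes tested, and Lipe did not pass. Cd36 lay below the filter in both genotypes and was not tested. No array of one genotype reached into the range of the other for the 7 called genes, as for 81.5% of all tested genes. Lpl exceeded the filter only through its SMRTmRID arrays, so its call was bound up with passing it. With 65.2% of all tested genes called, a count of this size says little about the group, and the sizes of the differences are given instead. They ran from 7.65 for Lpl to -1.13 for Vldlr. The median of the 8 was 0.30, against -0.05 for all tested genes.

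**Figure D1:**
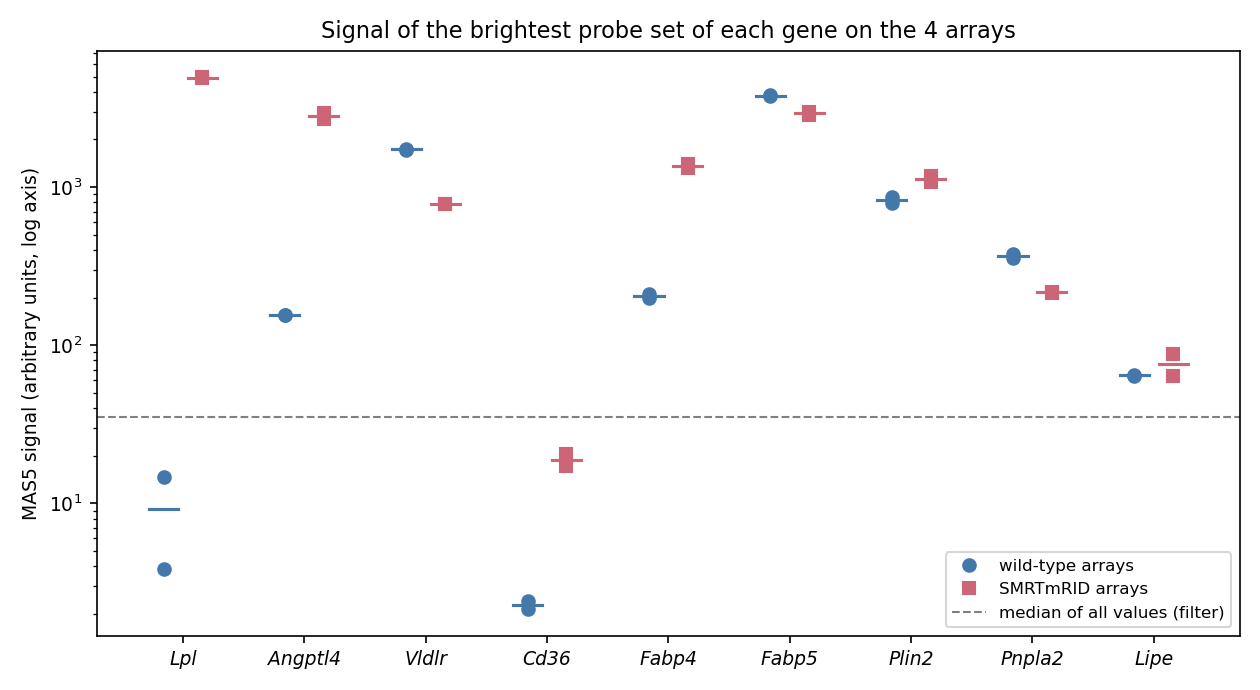
MAS5 signal (log axis, arbitrary units) of the brightest probe set of 9 genes on the wild-type arrays (circles) and SMRTmRID arrays (squares), with short lines at the means of 2 arrays and a dashed line at the filter of 35.1. The arrays of the genotypes are apart for every gene shown except Lipe, and Lpl in wild-type and Cd36 in both genotypes lie below the dashed line.

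Lpl, the lipase itself, had signals of 14.7 and 3.81 on the wild-type arrays against 4944 and 4905 on the SMRTmRID arrays. Both wild-type values lay below the median signal of their own array (34.3 and 30.3). The log2 difference was 7.65 ± 0.17 (SE, adjusted p = 1.22e-09 by limma). Its size depends on how a near-background wild-type value is treated, and it was 9.15 with a pseudocount of 1 and 6.09 with a pseudocount of 64. The second Lpl probe set read 9.42 and 11.7 in wild-type cells against 2902 and 2880.2 in SMRTmRID cells, a log2 difference of 6.77 ± 0.10 (SE). On both probe sets the genotypes were far apart and the SMRTmRID arrays nearly equal. In RNA from whole cultures, a larger share of cells expressing a gene and more RNA per cell cannot be told apart, here and for the genes that follow.

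Angptl4 encodes a secreted inhibitor that inactivates lipoprotein lipase and is induced by PPARs and by low oxygen. Its signals were 155 and 154 in wild-type cells against 2699.5 and 2921 in SMRTmRID cells. Wild-type cells thus already gave a signal above the filter, and the mean was 18.2-fold higher in SMRTmRID, between 17.4-fold and 18.9-fold for the 4 ways to pair the arrays across genotypes. The log2 difference was 4.05 ± 0.06 (SE, adjusted p = 1.60e-10). That probe set carries a suffix that marks probes shared by more than 1 transcript, and the size of the difference rests on it. The dimmer Angptl4 probe set had 6.96 and 2.20 in wild-type cells against 39.0 and 33.9 in SMRTmRID cells, apart in the same direction, and was not tested. Averaging both probe sets gave a log2 difference of 2.70. The genes of the lipase and of its inhibitor were thus both higher in the SMRTmRID cultures.

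The receptor for very low density lipoprotein went the other way. Vldlr, which binds apolipoprotein E and brings lipoprotein lipase and its substrate together at the cell surface, had signals of 1747 and 1721 in wild-type cells against 780.02 and 782 in SMRTmRID cells. The wild-type mean was 2.22-fold the SMRTmRID mean, with a log2 difference of -1.13 ± 0.05 (SE, adjusted p = 9.26e-08). That probe set carries a suffix that marks probes able to bind other transcripts, but all 6 Vldlr probe sets had a lower mean in SMRTmRID. In a fit over 20080 probe sets, of which 61.1% were called, 31.7% higher and 29.4% lower, 4 of the 6 were called lower, with log2 differences of -1.13, -1.07, -0.57 and -0.60. The other two had -0.38 and -0.48 and did not pass (adjusted p = 0.0676 and 0.0969). Averaging all 6 gave -0.71. The 2 brightest Vldlr probe sets thus showed differences of about 1 log2 unit, and the dimmer ones smaller differences.

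Cd36 encodes a scavenger receptor that imports long-chain fatty acids. Its brightest probe set read 2.14 and 2.41 in wild-type cells against 20.5 and 17.2 in SMRTmRID cells, all below the median signal of the arrays. The values of the genotypes did not overlap, but detection calls were not used here and no level can be assigned to them. The other Cd36 probe sets had signals between 0.498 and 6.09. Without the filter, the difference of 0.93 passed the test (adjusted p = 0.0148).

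The fatty acid binding protein genes Fabp4 and Fabp5, which encode the adipocyte and the epidermal form of the carrier, moved in opposite directions. Fabp4 had signals of 198 and 211 in wild-type cells against 1328 and 1408 in SMRTmRID cells. Its mean was 6.69-fold higher in SMRTmRID (6.28 to 7.13 over the 4 pairings), a log2 difference of 2.65 ± 0.07 (SE, adjusted p = 3.69e-09). A second Fabp4 probe set gave 174 and 134 in wild-type cells against 982 and 1089 in SMRTmRID cells, a log2 difference of 2.64. The remaining 2 were below the filter, and averaging all 4 gave 1.57. Fabp5 had signals of 3824 and 3749 in wild-type cells against 3000.2 and 2869.7 in SMRTmRID cells, a log2 difference of -0.37 ± 0.05 (SE, adjusted p = 8.56e-05). Its other probe set had -0.45. Neither gene had overlapping arrays between genotypes, with a large rise in Fabp4 and a fall of 1.29-fold in Fabp5.

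These carriers are neighbours. In the RefSeq annotation (GRCm38.p6) Fabp5, Pmp2, Fabp9, Fabp4 and Fabp12 follow each other on chromosome 3 with no other protein-coding gene between them, and all encode proteins of the same lipid-binding family. Pmp2 (signals of 3.23 to 4.81), Fabp9 (2.04 to 16.1) and Fabp12 (13.4 to 19.8) lay below the filter on all 4 arrays. Fabp4 was thus the 1 gene of this cluster called higher in SMRTmRID, and the genes tested on either side of the cluster, Pag1 and Impa1, had log2 differences of 0.25 and 0.04, neither of them called.

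**Figure D2:**
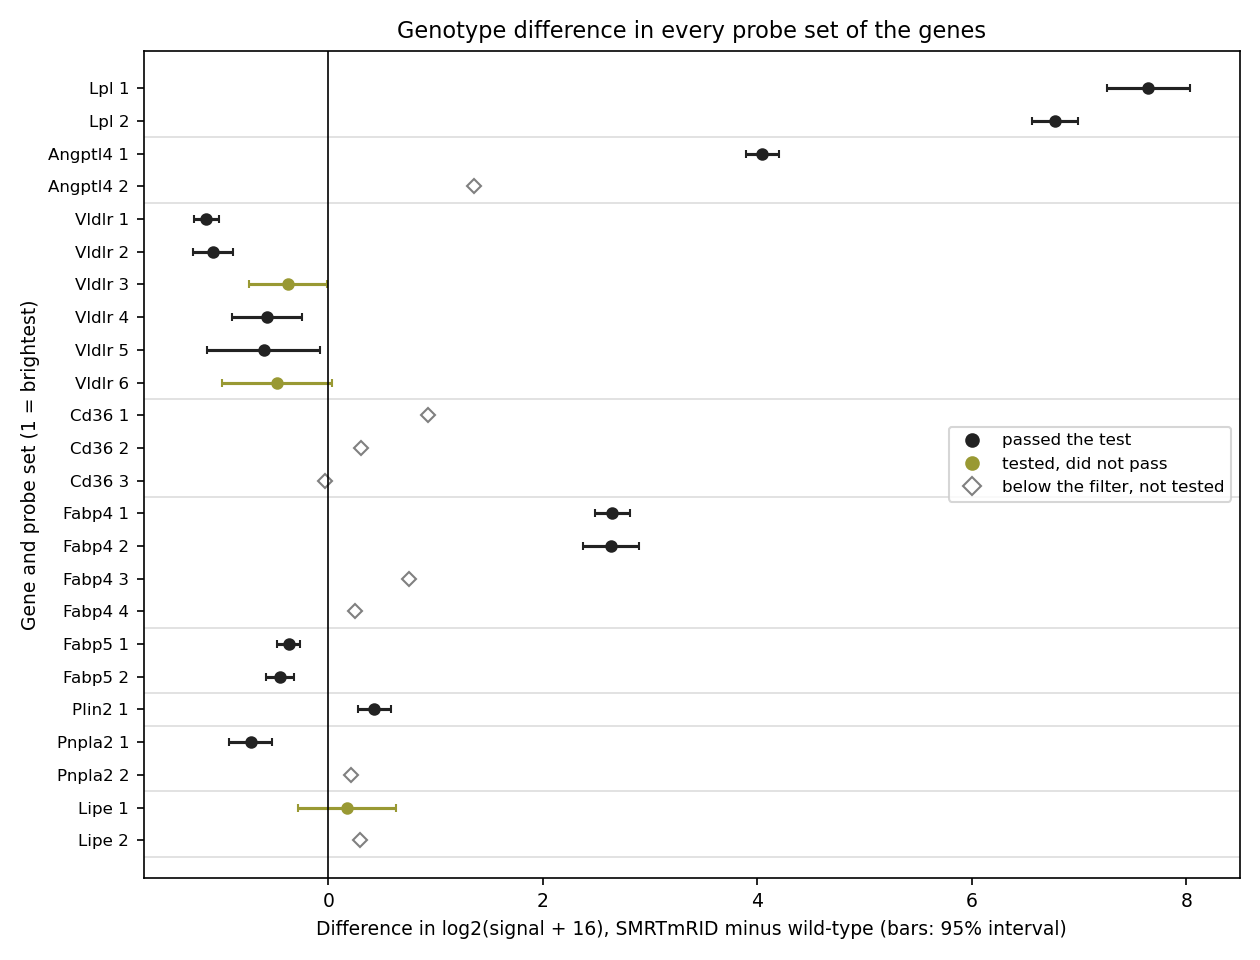
Difference in log2(signal + 16), SMRTmRID minus wild-type, of every probe set of the genes, numbered from the brightest, with 95% intervals from limma for tested probe sets and open diamonds for those below the filter. The tested probe sets of Lpl, Angptl4, Fabp4 and Plin2 lie to the right of 0 and those of Vldlr, Fabp5 and Pnpla2 to the left.

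At the lipid droplet the differences were smaller. Plin2, which encodes a droplet coat protein present in most cell types, had signals of 796 and 866 in wild-type cells against 1081 and 1169.6 in SMRTmRID cells. It was 1.35-fold higher, a log2 difference of 0.43 ± 0.07 (SE, adjusted p = 0.000286), which was 0.26 after median centring (adjusted p = 0.0166). Pnpla2 encodes adipose triglyceride lipase, which removes the first fatty acid from stored triglyceride. It had signals of 379 and 355 in wild-type cells against 214 and 218 in SMRTmRID cells, a log2 difference of -0.72 ± 0.09 (SE, adjusted p = 7.63e-05). Its second probe set lay between 2.81 and 13.6 and was not tested, and averaging both probe sets gave -0.25, which was not called (adjusted p = 0.217). Lipe encodes hormone-sensitive lipase, which acts on the resulting diglyceride. It read 65.2 and 64.2 in wild-type cells against 88.5 and 63.5 in SMRTmRID cells. Those arrays overlapped, and the 95% interval of its log2 difference ran from -0.29 to 0.64 (adjusted p = 0.483). Thus the coat gene rose, the gene of the first lipase fell, and no difference was detectable for the second within that interval.

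Because SMRT acts through nuclear receptors, the promoters were searched for the letters AGGTCA, the core hexamer to which many of these receptors bind. RefSeq promoters were at hand for 6 of the 10 genes, as 8 windows of 250 bases before a start site. None was at hand for Lpl, Angptl4, Fabp4 and Fabp5, so the genes that rose most were not searched. The hexamer, on either strand, was present in 14.0% of all 32851 such windows. Among the 8 it occurred once in Plin2 and once in Cd36, on the strand opposite to the gene both times, and not in the windows of Angptl2, Lipe, Pnpla2 and Vldlr. The longer pattern AGGNCANAGGNCA, a repeat spaced by 1 base of the kind PPARs bind, overlaps the hexamer where the N inside either AGGNCA is T, and was found in 0.338% of all windows and in none of the 8. The windows of called genes run from 5′ to 3′ on the gene's strand (GRCm38.p6, RefSeq), for 1 gene that rose and 2 that fell, with the hexamer in capitals. For Vldlr, which has 2 annotated starts, the window is that of the upstream one.
Plin2, chr4:86670060-86670309, strand -: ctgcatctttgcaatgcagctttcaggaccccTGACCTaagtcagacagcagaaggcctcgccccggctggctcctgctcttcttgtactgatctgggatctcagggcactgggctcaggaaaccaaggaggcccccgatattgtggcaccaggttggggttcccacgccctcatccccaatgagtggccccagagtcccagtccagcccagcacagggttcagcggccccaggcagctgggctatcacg
Pnpla2, chr7:141454938-141455187, strand +: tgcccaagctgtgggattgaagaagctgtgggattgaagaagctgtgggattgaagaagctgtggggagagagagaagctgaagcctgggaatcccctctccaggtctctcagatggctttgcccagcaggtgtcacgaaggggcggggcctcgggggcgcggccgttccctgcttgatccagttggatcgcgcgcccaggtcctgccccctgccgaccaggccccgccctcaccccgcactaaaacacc
Vldlr, chr19:27216234-27216483, strand +: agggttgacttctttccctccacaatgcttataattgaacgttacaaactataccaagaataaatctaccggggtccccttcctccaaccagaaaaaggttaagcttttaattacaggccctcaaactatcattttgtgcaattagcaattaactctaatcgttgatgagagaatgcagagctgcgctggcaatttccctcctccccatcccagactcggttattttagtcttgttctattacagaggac
The Plin2 match lies 218 to 213 bases before the start. A match describes letters only, and windows this short leave out enhancers and introns.

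Other genes of the same pathway were taken from lists of its partners. Of 102 such genes that are neither members nor cell type markers, 59 were tested. Of these 26 were higher, 15 were lower and 18 did not pass, where 30.3% of all tested genes were higher, 35.0% lower and 65.2% called. Their median difference was 0.14 on the log2 scale, against -0.05 for all tested genes. This split moved with the scaling, as did that of all tested genes. After median centring 19 were higher and 17 lower, with a median of -0.02. Of all 11057 tested genes 2481 were then higher and 4828 lower, with a median of -0.21. After quantile normalization 29 were higher and 15 lower, with a median of 0.19 (all tested genes: -0.10).

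**Figure D3:**
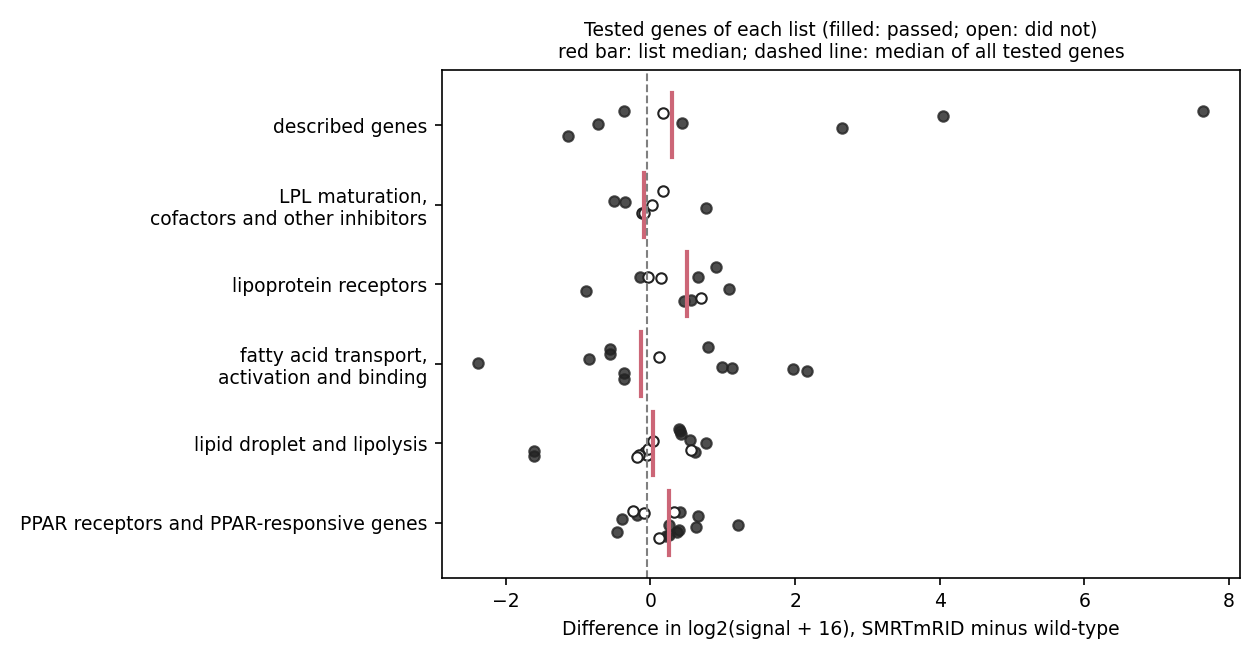
Log2 differences, SMRTmRID minus wild-type, of the tested genes of each list (points; filled, passed the test; open, did not), with the list median as a red bar and the median of all tested genes (-0.05) as a dashed line. The 8 tested genes described here span the widest range, and the other lists hold genes on both sides of 0.

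The partners of lipoprotein lipase that were called had differences of less than 1 log2 unit. Of 7 tested genes for maturation, cofactors and other inhibitors, 1 was higher and 2 were lower (all tested genes: 30.3% and 35.0%). The list median was -0.09. Lmf1, which encodes a factor the lipase needs to fold, had signals of 190 and 228 in wild-type cells against 190 and 193 in SMRTmRID cells, a log2 difference of -0.11 that did not pass (95% interval -0.38 to 0.16). Sel1l, a subunit of the degradation machinery in the endoplasmic reticulum through which the lipase matures, had a log2 difference of -0.51 and was called lower. Among surface proteoglycans that can hold the lipase, Sdc1 was called lower at -0.36 (-0.23 after quantile normalization). Sdc4 was called higher at 0.77 on its brightest probe set, whereas its other probe set was called lower at -0.91, so its direction was not settled. Apoc2, the obligate cofactor, had 6.58 and 22.2 in wild-type cells against 3.86 and 1.30 in SMRTmRID cells, and Gpihbp1, which anchors the lipase on capillary endothelium, had 5.35 and 18.1 against 24.4 and 23.6. Both were below the filter. Apoe, the gene of apolipoprotein E, had 2.99 and 3.68 in wild-type cells against 54.4 and 62.7 in SMRTmRID cells. The genotypes were apart, but the mean of its signals fell below the filter and it was not tested.

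Among 10 tested lipoprotein receptors and their regulators other than Vldlr, 5 rose and 2 fell (all tested genes: 30.3% and 35.0%). The list median was 0.51. The counts were the same after median centring, and 6 and 1 after quantile normalization. Lrp6, a Wnt coreceptor of the family, rose by 1.09, Sort1, the sorting receptor sortilin, by 0.91 (0.58 with a pseudocount of 64) and Mylip, a ubiquitin ligase that removes the VLDL receptor, by 0.65. Lrp8, the closest relative of Vldlr, had signals of 104 and 115 in wild-type cells against 47.8 and 55.9 in SMRTmRID cells, a log2 difference of -0.89 ± 0.18 (SE, adjusted p = 0.00205). It was -0.58 with a pseudocount of 64, and Lrp8 did not pass on its second brightest probe set (-0.14, adjusted p = 0.732).

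Transport, activation and binding of fatty acids split by gene. Among the 12 tested, 5 rose and 6 fell (all tested genes: 30.3% and 35.0%), and the median was -0.13. Quantile normalization gave 6 higher and 6 lower with a median of 0.0037 (all tested genes: -0.10). Median centring gave a median of -0.29 (all tested genes: -0.21). Acsl4, a ligase that activates arachidonic acid, went from 145 and 137 in wild-type to 645 and 728 in SMRTmRID cells, a difference on the log2 scale of 2.16 ± 0.09 (SE), whereas Acsl5, a related ligase, had -0.85. Of the transporter genes, Slc27a3 had 85.1 and 80.3 in wild-type cells against 2.40 and 3.55 in SMRTmRID cells, a log2 difference of -2.38. It passed the filter only through its wild-type arrays, and the difference ran from -4.41 with a pseudocount of 1 to -1.13 with 64. The related Slc27a1 rose by 0.99, and Slc27a4 had -0.37. Fabp7, the brain form of the carrier, rose from 30.5 and 16.6 to 130 and 145. It passed the filter only through its SMRTmRID arrays, and its log2 difference was 2.55 with a pseudocount of 1 and 1.21 with 64. Fabp3, the heart form, had a log2 difference of -0.57 (adjusted p = 0.0436), a call lost when any 1 of the 4 arrays was left out (-0.68 to -0.45). The caveolar coat genes also diverged, with Cav2 at 1.12 and Cav1 at -0.55. The Cav2 call was lost on its second probe set (0.46, adjusted p = 0.0977).

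Of 15 tested droplet and lipolysis genes 6 were higher and 2 lower (all tested genes: 30.3% and 35.0%), with a median of 0.03. After median centring 4 were higher and 3 lower, with a median of -0.13 (all tested genes: -0.21). The 2 greatest differences were negative: Plin4, a perilipin of adipocytes and muscle, went from 145 and 159 to 30.7 and 49.3 (-1.60, or -1.06 with a pseudocount of 64), and Lpin3, a phosphatidate phosphatase, from 176 and 168 to 57.8 and 35.5 (-1.61). Rab18, a droplet-bound GTPase, rose by 0.76 and Lipa, the lysosomal acid lipase, by 0.61. Abhd5, which encodes the coactivator of the Pnpla2 lipase, had 389 and 339 in wild-type cells against 479 and 505 in SMRTmRID cells and rose by 0.42 (0.25 after median centring, 1.16 on its second probe set), opposite in sign to Pnpla2. Plin1, the perilipin of adipocytes, had no probe set named here. G0s2, the inhibitor of the same lipase, was below the filter at 24.4 and 31.7 against 15.1 and 31.4.

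Among 16 tested PPARs and genes responsive to them, 9 rose and 3 fell, where 65.2% of all tested genes were called. The shares of all tested genes were 30.3% higher and 35.0% lower. The list median was 0.26. After median centring 4 rose and 4 fell, with a median of 0.09 (all tested genes: -0.21). Quantile normalization gave 10 higher and 4 lower, with a median of 0.24 (all tested genes: -0.10). Pparg had signals of 85.8 and 58.4 in wild-type cells against 121 and 123 in SMRTmRID cells and rose by 0.66 ± 0.19 (SE, adjusted p = 0.0124), a call lost without wild-type replicate 2 (0.44, adjusted p = 0.0751). Ppard, the broadly expressed receptor, had a log2 difference of 0.39 (adjusted p = 0.00355), which was lost after median centring (0.22, adjusted p = 0.0974) and with the mean of its probe sets (0.21, adjusted p = 0.232). Pdk4, a kinase that restrains pyruvate oxidation, rose by 1.21 and the fatty acid oxidation gene Acadm by 0.63, while the carnitine carrier gene Slc25a20 had a log2 difference of -0.47. Each of these differences was smaller than those of Lpl and Angptl4.

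Markers of cell types were examined because Lpl, Fabp4 and Cd36 are also expressed by adipocytes, macrophages and endothelium. Of 12 adipocyte markers 9 had a probe set, 7 of them below the filter value on every array, and their summed signal was 134 to 153 in wild-type and 162 to 172 in SMRTmRID. The list shares Lipe with the genes described here, its only tested gene, with a signal of 63.5 to 88.5 within that sum. Adipoq, the adiponectin gene, read 1.92 and 9.54 against 15.3 and 13.0, and Cidec, a droplet protein of mature adipocytes, lay between 1.57 and 16.5. The 12 macrophage markers had summed signals of 440 to 680 in wild-type and 643 to 718 in SMRTmRID. Of 5 tested, 2 were higher and none lower (all tested genes: 30.3% and 35.0%). Lyz2 rose by 1.65 (0.94 with a pseudocount of 64) and passed the filter only through its SMRTmRID arrays. Cd14 rose by 0.41, a call lost after median centring (0.24, adjusted p = 0.119), without wild-type replicate 2 (0.35) and without SMRTmRID replicate 1 (0.38). Csf1r read 266 and 86.7 in wild-type cells against 180 and 149 in SMRTmRID cells and did not pass (0.08, adjusted p = 0.866). The leukocyte gene Ptprc stayed between 1.01 and 11.9. The endothelial list of 10 summed to 172 to 203 and 148 to 187, with Pecam1 at no more than 3.09. Its 1 tested gene, the VEGF receptor gene Flt1, had 66.1 and 66.2 in wild-type cells against 36.3 and 32.9 in SMRTmRID cells. Flt1 was called lower (-0.70, adjusted p = 0.0205). That call was lost without a filter (adjusted p = 0.062), on its second probe set (-0.42, adjusted p = 0.238), without either wild-type array (-0.70 each time) and without SMRTmRID replicate 2 (-0.65). Fibroblast markers had summed signals of 89289 to 91183 and 109666 to 114839. Of the 15, 8 were higher and 6 lower (all tested genes: 30.3% and 35.0%). Those called lower were Col5a1 (-0.24), Col6a1 (-0.20), Fn1 (-0.18), Vim (-0.16), S100a4 (-0.31) and P4hb (-0.11). Most of the sum came from collagens, Fn1, Vim, S100a4 and P4hb, whereas Thy1, Fap and Lum lay below the filter value on both wild-type arrays. Of 3 tested skeletal muscle markers 1 was lower (all tested genes: 35.0%). The summed signal of the list was 306 to 472 in wild-type and 127 to 194 in SMRTmRID. Acta1, the actin of the muscle fibre, had a log2 difference of -3.61 (-5.17 and -2.19 with pseudocounts of 1 and 64). It passed the filter only through its wild-type arrays. Epithelial markers had summed signals of 342 to 359 and 272 to 288. Of 2 tested 1 was lower (all tested genes: 35.0%), Epcam, a surface adhesion protein, at -0.37. Its call was lost without a filter (adjusted p = 0.0548), with the mean of its probe sets (-0.25, adjusted p = 0.253), without wild-type replicate 1 (-0.32) and without SMRTmRID replicate 2 (-0.35). Cdh1 had 55.9 and 42.3 in wild-type cells against 2.41 and 1.61 in SMRTmRID cells, but its mean fell below the filter and it was not tested. Dcn, Thy1, Fap and Pdgfra, genes of matrix and surface proteins of fibroblasts, rose by 6.82, 6.80, 4.46 and 4.20 on the same arrays as Lpl. With pseudocounts of 1 and 64, Thy1 had 7.96 and 5.39 and Fap 6.05 and 2.94, and Dcn was 4.01 when its probe sets were averaged. The part of these shifts in the differences of the lipid genes was not tested.

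The genes whose profile over the 4 arrays was nearest to that of Lpl, by mean absolute difference of centred log2(signal + 16), were Ptn (0.230), Igfbp3 (0.304), Ms4a4d (0.334), Dcn (0.413) and Thy1 (0.425). Each had wild-type signals of at most 63.7 and SMRTmRID signals of at least 2061. With 2 arrays per genotype this likeness is little more than a similar difference between genotypes.

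**Figure D4:**
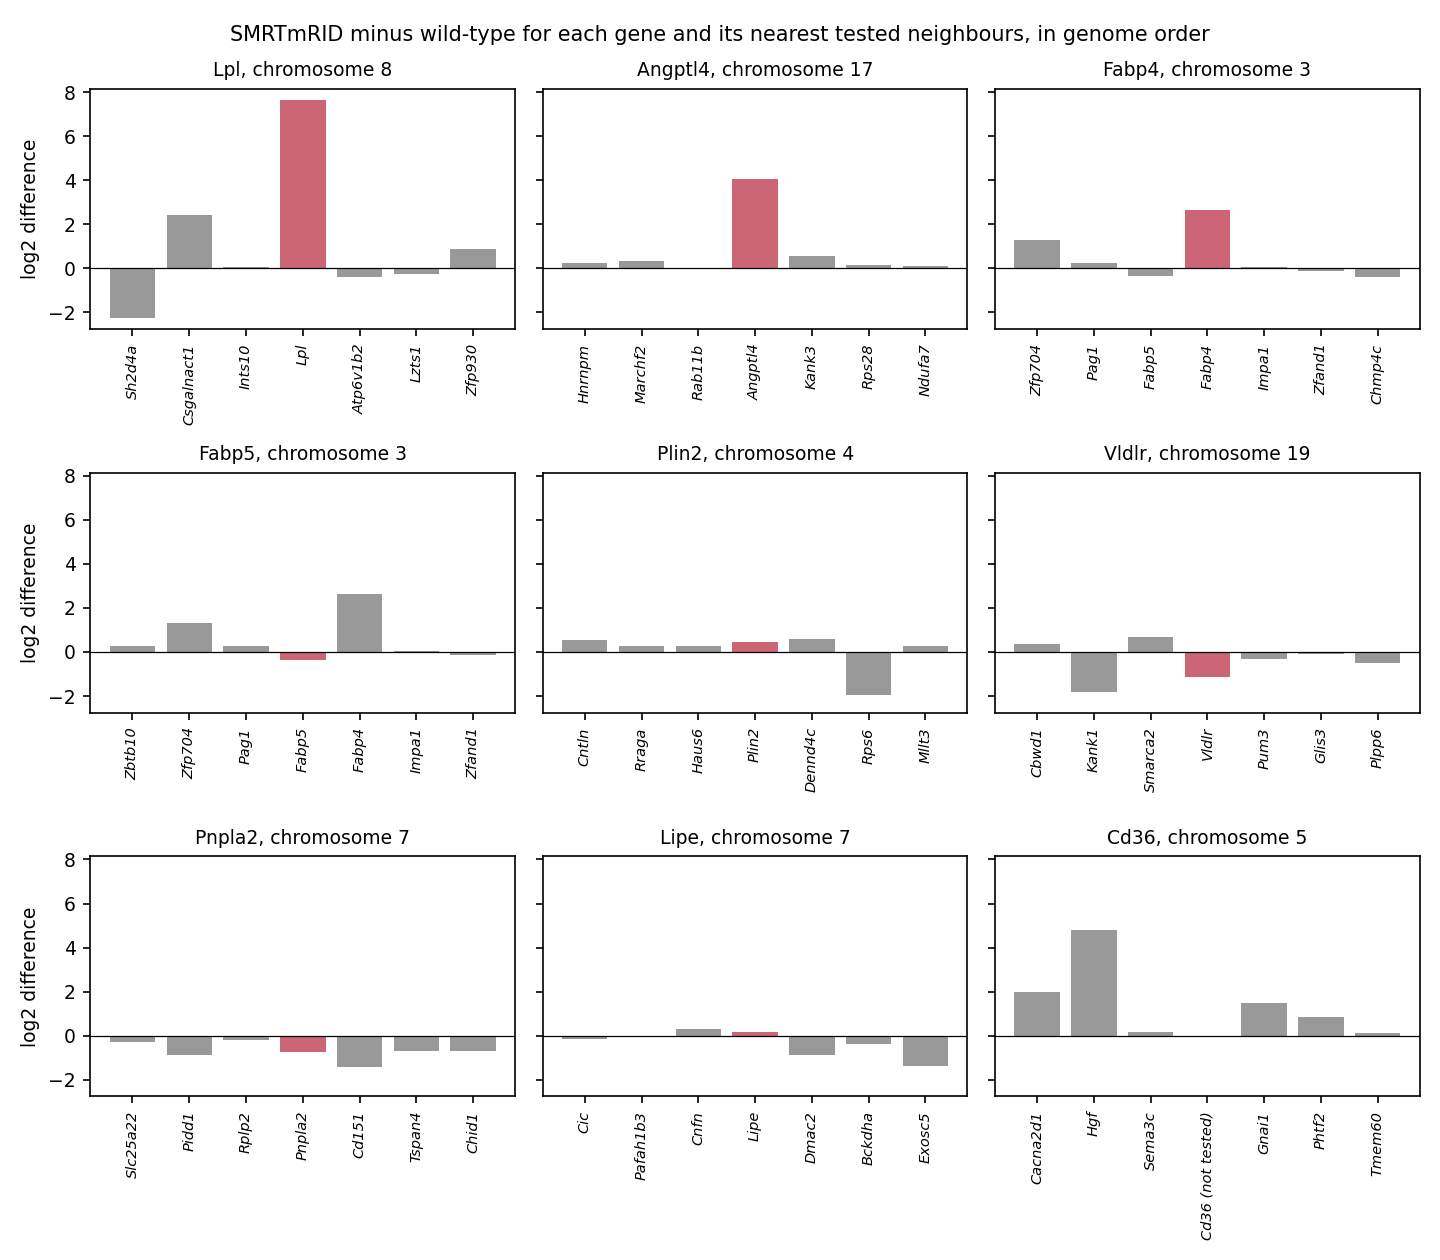
Log2 difference, SMRTmRID minus wild-type, of 8 tested genes (red; Cd36 was not tested and has no red bar) and of the 3 nearest tested protein-coding genes on each side (grey), in genome order. Lpl, Angptl4 and Fabp4 rise above all of their neighbours, the neighbours of Pnpla2 are all below 0, and those of Cd36 are all above 0.

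The neighbours of the genes on their chromosomes were compared as well. Neighbours were the 3 nearest tested protein-coding genes on each side. Around Lpl on chromosome 8 they ranged from -2.26 to 2.41, with 2 called higher and 2 lower, and the adjacent gene Ints10 had 0.06. Around Angptl4 on chromosome 17 they lay between -0.01 and 0.58, with 3 higher and none lower. Around Pnpla2 on chromosome 7 all 6 were below 0, from -1.45 to -0.20, and 5 were called lower, among them Cd151 at -1.45 and Tspan4 at -0.71. Around Cd36 on chromosome 5 all 6 were above 0, from 0.11 to 4.80, and 5 were called higher. These calls compare with 35.0% of all tested genes called lower and 30.3% higher. Around Vldlr on chromosome 19, 3 were lower and 1 higher, and around Lipe, also on chromosome 7, 3 were lower and 3 did not pass. Plin2 had 3 higher and 1 lower, and Angptl2 1 higher and 1 lower. Fabp4 had 1 higher and 1 lower, and Fabp5 2 higher and none lower, each being a neighbour of the other. The neighbourhoods of Pnpla2 and Cd36 were thus the most one-sided of those compared.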

How the data were processed

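Biotinylated RNA from 4 samples was hybridised to Affymetrix arrays, 1 array each, prepared from 5 µg of total RNA per the labels' protocols. The deposited intensity values are MAS5 signals per the submitters' processing notes: 1 linear value per probe set, each array scaled by the authors to a common level. Detection calls, raw probe intensities and MAS5's settings were not used here. Of 45037 probe sets other than controls, 34945 had 1 gene symbol, 932 had several, and 9160 had none here. The brightest probe set by mean signal stood for a gene. Signals were analysed as log2(signal + 16) without further normalization, in limma 3.58.1 (R 4.3.3; lmFit, eBayes with a variance trend, no covariates). All p-values are two-sided and adjusted over all genes tested in the same fit, or over all probe sets tested in the probe set fit. The fit was tested on simulated data with a share of changed genes far below the 65.2% called here, so that check does not cover this setting. The members and lists were chosen with earlier results of these data known. Named are all members, the 4 called genes with the greatest change in each partner list, key partners of members, and the 5 genes nearest to Lpl; other genes, and the neighbour comparison, were chosen after values were seen. Same-numbered arrays did not deviate together (correlation 0.0122 across genes), so they were not paired. Alternatives covered the pseudocount, filter, normalization, variance trend, probe set choice, replicate block and leaving out each array. The number of arrays limits the precision. Being technical replicates, they carry no measure of the spread between lines or embryos of a genotype. A difference between genotypes therefore cannot be told apart from a difference between lines. Promoter sequences came from RefSeq.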

Additional observations from a re-analysis of the deposited data

How the results depend on the processing

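Under 14 alternatives, the 7 called genes Lpl, Angptl4, Fabp4, Plin2, Vldlr, Fabp5 and Pnpla2 kept their direction wherever they were tested, and all but Pnpla2 kept their call. Averaging its probe sets, Pnpla2 had -0.25 and did not pass. With the second brightest probe set Angptl4, Pnpla2 and Lipe fell below the filter and were not tested, which left 5 calls, and Lipe was not tested above the 75th percentile of signal either. Without a filter Cd36 passed at 0.93. Lipe ranged from -0.021 (without SMRTmRID replicate 1) to 0.37 when 1 array was left out. Lmf1, which did not pass, was 0.055 with the mean of its probe sets, and ranged from -0.23 to 0.012 (without wild-type replicate 2) when 1 array was left out. Sdc4 was -0.066 with the mean of its probe sets and -0.91 with its second probe set. Leaving out 1 array in turn gave 6566 to 6605 called genes and 7 called members each time; a genotype left with 1 array was assumed to vary like the other. With the replicate number as a block, 7420 genes and 7 members were called, and the arrays share only a number. Quantile normalization and median centring reversed none of the individual list genes that were followed through the alternatives. Fabp3 lost its call under 8 of the 13 alternatives that tested it. Background correction could not be varied, because only summarised signals were used. Signals below about 35.1 have no secure order.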
